A study of Mus musculus with 4 samples.

Results

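Gbx2 and 8 genes that mark the midbrain, the hindbrain and the neural tube were followed in RNA of the mouse first pharyngeal arch. The 9 genes are Gbx2, Otx2, En1, En2, Wnt1, Pax3, Pax6, Sox1 and Lmx1a, and they were found by symbol among the 52459 genes of the deposited table. Gbx2 was chosen by its lower normalized read count in the transgenic libraries, so its values are given as a description with no test. The other 8 were set beside it to ask whether neural tube markers share its fall. The first pharyngeal arch is the paired outgrowth from which the jaws form, and the study concerns molar patterning in mice with syngnathia, in which the jaws fuse.

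Embryos had 25 to 27 somites, a stage between E9.5 and E9.75. The first group was wild-type and the second Wnt1-Cre;pMes-Bmp4, with 2 libraries of arch RNA in each. In the transgenic genotype the Cre recombinase, driven by regulatory sequences of Wnt1, acts in the dorsal neural tube and the neural crest derived from it, and pMes-Bmp4 supplies a Bmp4 transgene that Cre switches on. No group carried Wnt1-Cre or pMes-Bmp4 alone, so effects of either transgene or of genetic background cannot be told apart from those of raised Bmp4. The labels do not say whether the libraries came from separate embryos, litters or pools, so p-values measure only the spread between these libraries, which may be technical. Bmp4, read as a check of the labels, was at 682 and 437 (wild-type) and at 2656 and 1745 (Wnt1-Cre;pMes-Bmp4), higher in both transgenic libraries; reads of transgene and endogenous gene were counted together where they share sequence. Library totals ran from 29607541 to 47849092 reads assigned to genes.

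In the embryonic brain Otx2 is expressed in the forebrain and midbrain and Gbx2 in the anterior hindbrain. The border between them positions the isthmic organizer, where Wnt1, Fgf8 and the engrailed genes En1 and En2 are expressed. Pax3 and Lmx1a mark the dorsal neural tube and roof plate, Pax6 and Sox1 mark neural progenitors. Several of these genes are also used outside the brain. Gbx2 and Lmx1a are known in the otic vesicle, Gbx2 in the pharyngeal arches, Pax3 in neural crest, Pax6 in the placodes of the head ectoderm and Otx2 in head ectoderm and mesenchyme.

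Gbx2 lies on chromosome 1 at 89927956 to 89931179 of GRCm38, on the minus strand, and has 2 exons. The 250 bases before its start, from RefSeq on GRCm38.p6, are printed because it is the gene whose level differs and because the transgene raises a BMP ligand, whose signal SMAD proteins carry to DNA. The letters in capitals are GGCGCC, a GC-rich motif known to bind SMAD1 and SMAD5, which reads the same on both strands.
Gbx2 promoter, chr1:89931177-89931426, minus strand: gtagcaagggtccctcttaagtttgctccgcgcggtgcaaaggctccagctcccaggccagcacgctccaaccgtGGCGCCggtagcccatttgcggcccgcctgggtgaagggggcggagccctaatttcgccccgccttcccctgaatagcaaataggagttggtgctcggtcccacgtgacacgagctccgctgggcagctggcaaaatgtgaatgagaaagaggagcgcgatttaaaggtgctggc

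The match in capitals begins 175 bases before the start, and another GGCGCC begins at the first transcribed base, just past the printed stretch. Windows of 300 bases, 250 before and 50 after each start, were searched on both strands for 7 of the 9 genes, in 11 windows. GGCGCC was present in 11.9% of the 32851 mouse promoter windows, and 2.04% held at least 2 matches. Among the windows of the 7 genes GGCGCC was found in that of Gbx2 and in no other. The motif holds only the letters G and C. These made up 61.6% of the 250 bases printed, against a median of 52.4% over all promoters. The TCF/LEF motif CTTTGAT, present in 3.73% of all windows, was in none of the 11. TAATTA, the core read by many homeodomains, was in 2 windows of Otx2 and in 5.29% of all windows, and the ETS core CCGGAA was in the En1 window and in 14.9% of all. The 4 motifs do not overlap one another in these windows, and a match of letters is no evidence that a factor binds.

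Gbx2 was read at a normalized count of 116 and 147 in the wild-type libraries and at 12.8 and 13.3 in the Wnt1-Cre;pMes-Bmp4 libraries. The normalized count is the number of reads divided by the size factor of the library. Both transgenic libraries lay far below both wild-type libraries, and the libraries of a group were close to each other. The means were 132 ± 21.7 and 13.1 ± 0.381 (SD, n = 2 each), a 10.1-fold lower level, with a log2 fold change of -3.23 on the log2(value + 1) scale. These values rest on 157 and 143 reads in wild-type and on 12 and 11 reads in the transgenic group. Exact Poisson 95% intervals, which cover counting error only, ran from 99 to 136 and from 124 to 173 normalized reads in wild-type, and from 6.61 to 22.4 and from 6.66 to 23.9 in the transgenic group. Among all 16746 genes tested 19 had a lower log2 fold change, and 6 among the 12411 whose mean reached 50. As Gbx2 was picked for its fall, this rank is only a description. In bulk tissue, fewer cells that express a gene and less RNA in each cell cannot be told apart.

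D130058E05Rik, a noncoding gene on the opposite strand, was at 45.2 and 51.4 (wild-type) and at 4.27 and 0 (Wnt1-Cre;pMes-Bmp4). It was looked at after its values were seen, because it spans 89930234 to 89933290 and shares 946 exonic bases with Gbx2. No source used here states that reads were counted by strand, so reads of the overlap cannot be assigned to either gene with certainty. The transgenic group held 4 of its reads in all, and the log2 difference of -4.42 ± 0.90 (SE) had a limma adjusted p of 0.0354 (Benjamini-Hochberg over all genes tested). The adjusted p was 0.172 when wild-type replicate 1 was left out, 0.392 when wild-type replicate 2 was, and 0.0536 after a correction for transcript length. Counts under both symbols were lower in both transgenic libraries. Reads of Gbx2 may be counted under D130058E05Rik, and Gbx2 was picked for its fall. The test of D130058E05Rik therefore gives no separate support.

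**Figure D1:**
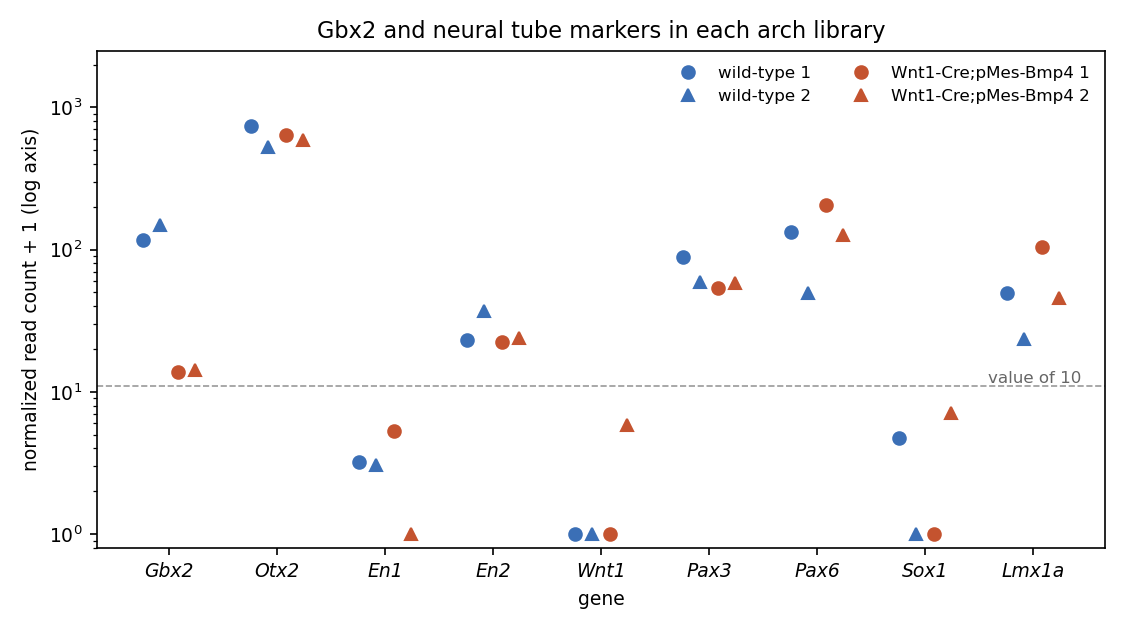
Normalized read counts plus 1, on a log axis, of the 9 genes in each of the 4 libraries. Blue is wild-type, orange Wnt1-Cre;pMes-Bmp4, circles are replicate 1 and triangles replicate 2, and the dashed line is the minimum mean of 10 for testing. The Gbx2 libraries separate at 116 and 147 against 12.8 and 13.3, and En1, Wnt1 and Sox1 stay below 10 in every library.

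The fall of Gbx2 was not accompanied by a change in its counterpart at the midbrain-hindbrain border that passed the test. Otx2 was the most abundant gene of the set and was at 734 and 521 (wild-type) and at 639 and 593 (Wnt1-Cre;pMes-Bmp4). Both transgenic values lay between the wild-type values. The difference of -0.01 ± 0.20 (SE) on the log2 scale had a limma adjusted p of 0.984 and a 95% interval from -0.49 to 0.47. Per kilobase of its longest transcript, the mean level of Otx2 was 242 in wild-type, against 61.7 for Gbx2. In the transgenic group the same levels per kilobase were 238 for Otx2 and 6.12 for Gbx2. The antisense transcript Otx2os1, whose exons share 154 bases with Otx2, was at 14.8 and 20.6 (wild-type) and at 14.9 and 23.0 (transgenic).

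The engrailed genes and Wnt1 had few reads. En2, a homeobox gene also known in the muscle precursors of this arch, was at 22.3 and 36.0 (wild-type) and at 21.3 and 23.0 (Wnt1-Cre;pMes-Bmp4). The groups overlapped, and the difference of -0.34 ± 0.48 (SE) on the log2 scale had a limma adjusted p of 0.674 and a 95% interval from -1.47 to 0.79. En1 had 3 and 2 reads in wild-type and 4 and 0 in the transgenic libraries. Wnt1 had no read in 3 libraries and 4 reads in Wnt1-Cre;pMes-Bmp4 replicate 2. With 3 reads as the one-sided 95% limit of a count of 0, the zeros of Wnt1 allow values up to 2.23, 3.09 and 3.20. These limits are for wild-type replicates 1 and 2 and Wnt1-Cre;pMes-Bmp4 replicate 1, in that order. A fall of En1 or Wnt1, or a small rise, could not be detected at this depth. Reads that a Wnt1-Cre transcript shares with Wnt1 would be counted under Wnt1.

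Pax3, a paired-box gene of the dorsal neural tube and the crest, was at 87.5 and 58.6 (wild-type) and at 52.3 and 57.0 (Wnt1-Cre;pMes-Bmp4). The transgenic libraries lay just below the lower wild-type library. The difference of -0.39 ± 0.35 (SE) on the log2 scale had a limma adjusted p of 0.503 and a 95% interval from -1.21 to 0.44. Groups that do not overlap were common: they were seen in 59.7% of all genes tested, and 29.7% had both transgenic libraries lower.

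Lmx1a, a LIM-homeobox gene of the roof plate, was at 48.2 and 22.6 (wild-type) and at 103 and 44.9 (Wnt1-Cre;pMes-Bmp4). The transgenic replicate 1 was highest and the wild-type replicate 2 lowest, and the other libraries were alike. The difference of 1.02 ± 0.55 (SE) on the log2 scale had a limma adjusted p of 0.263 and a 95% interval from -0.26 to 2.30. Replicate 1 exceeded replicate 2 by 2.13 times in wild-type and by 2.31 times in the transgenic group, so the libraries within a group differed as much as the group means, which differed 2.09-fold.

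Pax6, a regulator of neural progenitors and of the eye, followed the same order. It was at 132 and 48.3 (wild-type) and at 205 and 126 (Wnt1-Cre;pMes-Bmp4). The groups overlapped, with the transgenic replicate 2 just under the wild-type replicate 1. The difference of 1.00 ± 0.49 (SE) on the log2 scale had a limma adjusted p of 0.228 and a 95% interval from -0.15 to 2.15. Without Wnt1-Cre;pMes-Bmp4 replicate 2 the log2 fold change of Pax6 was 1.34 with a limma adjusted p of 0.0019 and that of Lmx1a 1.62 with 0.00699, and 7.17% of all genes were then called higher. Without Wnt1-Cre;pMes-Bmp4 replicate 1 the values were 0.65 and 0.43, with limma adjusted p of 0.181 and 0.581. In such a fit 1 transgenic library is left, its spread is assumed to be that of the wild-type pair, and the p-values say nothing about variation among transgenic libraries. Summed markers of surface ectoderm, the outer epithelium of the arch, were likewise lowest in wild-type replicate 2 and highest in transgenic replicate 1. They were at 29646 and 22670 in wild-type and 39385 and 36187 in the transgenic group. Here transgenic replicate 2 exceeded wild-type replicate 1, unlike for Pax6 and Lmx1a. Other summed lists had the same lowest and highest library. The forebrain and midbrain list was at 1584 and 1290 (wild-type) and at 1629 and 1462 (transgenic). The lens, olfactory and eye list, which includes Pax6, was at 745 and 456 and at 941 and 731. The part of any of these tissues in the values of Pax6 and Lmx1a was not tested. All 15 of these ectoderm markers were in the table and 14 were tested. Krt5 was the exception, with a value of 8.2 at most. Krt18, Krt8, Epcam and Cldn6 had the highest values and weighed most in the sum. Of the 14 tested, 10 had a positive log2 fold change and 4 a negative one. Tfap2c, named after its values were seen, was at 259 and 280 (wild-type) and at 186 and 143 (transgenic). The order of the ectoderm sum was therefore not that of every marker.

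Sox1, an early marker of neural progenitors, had 5 reads in wild-type replicate 1, 5 in Wnt1-Cre;pMes-Bmp4 replicate 2 and none in the other libraries. Its difference was not detectable at this depth.

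Of the 8 genes beside Gbx2, 5 reached the mean of 10 needed for testing and 3 did not (En1, Wnt1 and Sox1). None of the 5 passed in limma (0 of 5, and 0 of 5 at an unadjusted p under 0.05), against 8.25% and 28.8% of the 16746 genes tested, where 2.97% were called higher and 5.28% lower. edgeR on the recovered reads also called 0 of the 5, against 7.91% of all genes, and DESeq2 called 0 of the 4 to which it gave an adjusted p (it gave none to En2), against 22.3%. Their log2 fold changes ran from -0.39 to 1.02, and the lowest bound of their 95% intervals was -1.47, for En2.

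The genes whose pattern over the 4 libraries was most like that of Gbx2 lay outside the set. Likeness was the root mean square difference between centred log2 values, over 11279 named genes whose mean reached 50. The 5 nearest were Smoc1, a secreted matrix protein that modulates BMP signals, at 0.230, the filamin Flnc at 0.390, the zinc finger factor Sall3 at 0.434, the antisense transcript Dlx4os at 0.443 and the anion channel subunit Lrrc8a at 0.479. Smoc1 was at 885 and 1257 (wild-type) and at 159 and 120.0 (Wnt1-Cre;pMes-Bmp4). Its libraries separated in the same way, and its mean was 7.68-fold lower. For Flnc, Sall3, Dlx4os and Lrrc8a the means were 6.04-fold, 5.51-fold, 5.81-fold and 4.95-fold lower. Dlx4os overlaps Dlx4, so part of its reads may belong to that gene. The other tested genes of the set were farther away, from 1.45 for En2, whose mean lay below 50, to 2.23 for Lmx1a. The likeness rests on 4 libraries and on the contrast by which Gbx2 was picked, and is a description. By this measure any gene with a small difference between the groups lies far from Gbx2, whatever its tissue.

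**Figure D2:**
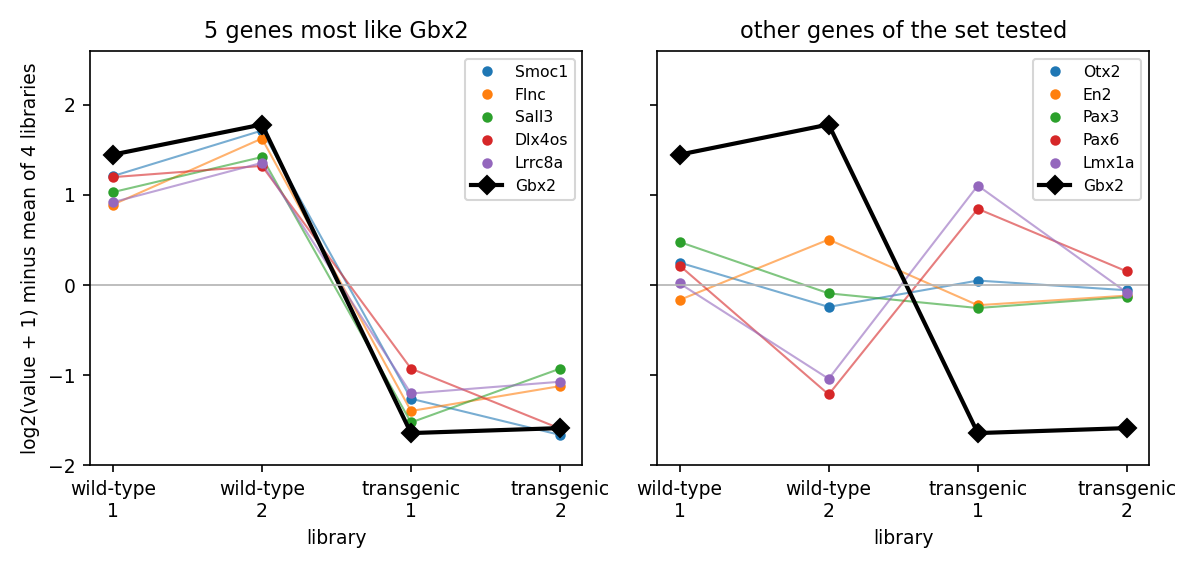
Log2(value + 1) of each gene minus its mean over the 4 libraries, for the 5 genes most like Gbx2 (left) and the other 5 tested genes of the set (right), with Gbx2 in black in both panels. Points are libraries and lines join the points of a gene. The nearest genes lie within 0.230 to 0.479 of Gbx2, and the other 5 tested genes of the set between 1.45 and 2.23.

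Wider lists of markers for the neural tube and other tissues were read in the same libraries. Of 18 neural tube progenitor genes 12 were too low to test, and 5 of these had at most 3 reads in every library (Dbx1, Nkx6-1, Nkx2-2, Olig2 and Lhx5); Olig2 and Lhx5 had none. Of the roof plate and dorsal neural tube genes 9 of 14 were too low, among them Wnt3a, Gdf7, Olig3 and Zic1. Of 11 hindbrain genes 10 were too low, and all 8 Hox genes of the list lay among them. The summed level of the progenitor list was 3631 and 3394 in wild-type and 3264 and 3282 in the transgenic group, most of it from Prom1, Nes, Sox2 and Fabp7, which other tissues also express. The 14 markers of crest mesenchyme, which fills the arch, were all tested, with Twist1 at 3324 and 4162 (wild-type) and at 2556 and 2121 (transgenic).

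The counts of list genes called are to be read against 8.25% of all genes called in limma, 2.97% higher and 5.28% lower, and 28.8% at an unadjusted p under 0.05. In the midbrain-hindbrain boundary list, 0 of the 8 genes tested beside Gbx2 passed in limma (2 at an unadjusted p under 0.05), with 7 of 8 log2 fold changes negative and a median of -0.32, against 0.02 for all genes tested. Fgf8, the signal of the organizer and also of the oral ectoderm, was at 2535 and 2415 (wild-type) and at 2047 and 1403 (Wnt1-Cre;pMes-Bmp4), with a limma adjusted p of 0.115. Lmx1b, a LIM-homeobox gene of the isthmus and head mesenchyme, was at 55.6 and 57.6 (wild-type) and at 34.1 and 2.42 (transgenic). Its transgenic libraries were both lower but differed widely, and the log2 fold change of -2.39 ± 0.99 (SE) had a limma adjusted p of 0.165. With Wnt1-Cre;pMes-Bmp4 replicate 1 left out Lmx1b was at -4.07 (limma adjusted p 1.9e-08) and Fgf8 at -0.82 (1.21e-05), when 2719 genes were called lower in all. With replicate 2 left out they were at -0.71 (0.32) and -0.27 (0.257). Both fits take the spread from the wild-type pair alone, so neither covers variation among transgenic libraries. Both genes were named after their values were seen.

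In the progenitor list 1 of 6 genes tested was lower and 0 were higher (4 at an unadjusted p under 0.05), with a median log2 fold change of -0.22. The gene that passed was Nes, an intermediate filament gene of neural progenitors and other dividing cells, at 831 and 1020 (wild-type) and at 551 and 338 (Wnt1-Cre;pMes-Bmp4). The log2 difference of -1.09 ± 0.25 (SE) had a limma adjusted p of 0.0459, and 5 of 17 alternatives lost the call. Other genes of the list, named after their values were seen, did not pass. Sox2, a factor of progenitors and of foregut and oral epithelium, was at 706 and 627 (wild-type) and at 527 and 349 (transgenic), with a limma adjusted p of 0.123. Sox21 was at 66.8 and 102 and at 20.3 and 46.1, with a limma adjusted p of 0.111. Both lay lower in each transgenic library, as did 29.7% of all genes tested, and Prom1 lay higher in each, at 1598 and 1924 against 1382 and 1321. In the roof plate list 1 of 5 was higher (1 at an unadjusted p under 0.05), the BMP-responsive homeobox gene Msx1, which crest mesenchyme also expresses, and the median was 0.78. In the forebrain and midbrain list 1 of 9 was lower and 1 was higher (3 at an unadjusted p under 0.05), with a median of 0.15.

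Those were Emx2 and Hesx1. Emx2, a homeobox gene of the forebrain, was at 25.2 and 88.5 (wild-type) and at 0 and 2.42 (Wnt1-Cre;pMes-Bmp4), where 2 reads were counted in all. The wild-type libraries differed from each other more than 3-fold for this gene, and the log2 fold change of -4.71 ± 0.94 (SE) had a limma adjusted p of 0.0343. Hesx1, a homeobox repressor of the anterior head, rose from 81.6 and 67.9 to 174 and 205, a log2 difference of 1.33 ± 0.27 (SE) whose limma adjusted p was 0.0347. In the hindbrain list the 1 gene tested, the zinc finger gene Egr2, did not pass and was at 32.6 and 33.9 (wild-type) and at 58.7 and 33.9 (transgenic).

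Other tissues in which Gbx2 or its companions are known were read in the same way. The otic list held 5 tested genes beside Gbx2, of which 0 passed in limma (1 at an unadjusted p under 0.05), with a median log2 fold change of 1.02. The gene at an unadjusted p under 0.05 was Sox9, which went the other way, with a log2 fold change of -0.70. Sox9 was at 3174 and 4424 (wild-type) and at 2843 and 1860 (transgenic). Hmx2 and Hmx3, homeobox genes of the otic vesicle, did not pass and lay higher in both transgenic libraries. Hmx2 was at 14.1 and 6.17 against 53.3 and 18.2 and Hmx3 at 11.9 and 24.7 against 77.9 and 29.1. Groups that do not overlap were seen in 59.7% of all genes tested. Oc90, Pax2 and Pax8 were too low to test, with values of at most 14.5, 2.97 and 4.11 in any library, and Fbxo2 and Otol1 had at most 3 reads. In the lens, olfactory and eye list 1 of 6 genes was higher, the small heat shock gene Cryab (3 at an unadjusted p under 0.05), and the median was 0.07. The lens genes Foxe3 and Prox1 missed the threshold, Foxe3 at -1.87 (limma adjusted p 0.0528) and Prox1 at -1.11 (0.0858) on the log2 scale. Of 12 genes of cranial ganglia and neurons 0 passed in limma (1 at an unadjusted p under 0.05), with a median of -0.29. Tubb3 was at 295 and 239 (wild-type) and at 266 and 176 (transgenic). The gene at an unadjusted p under 0.05 was Neurog2, which lay higher, at 4.45 and 4.11 (wild-type) and at 40.5 and 12.1 (transgenic). Of 8 pharyngeal endoderm genes 1 was higher (3 at an unadjusted p under 0.05), with a median of 0.09. It was the homeobox gene Nkx2-6, which rose from 15.7 ± 6.16 to 85.0 ± 15.6 (SD, n = 2 each), with a limma adjusted p of 0.0301. The endoderm factors Foxa2 and Foxa1 missed the threshold as well, Foxa2 at -1.50 (limma adjusted p 0.0554) and Foxa1 at -1.06 (0.0805). Sox9, Hmx2, Hmx3, Foxe3, Prox1, Neurog2, Foxa1 and Foxa2 were named after their values were seen.

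The remaining lists describe the bulk of the arch. Of 14 crest mesenchyme genes 1 was higher, Prrx2, and 2 were lower, Tfap2a and Foxc1 (7 at an unadjusted p under 0.05), with a median log2 fold change of -0.41. Of 7 tested genes of migrating and glial crest 0 passed in limma (4 at an unadjusted p under 0.05), with a median of -0.43. Both transgenic libraries lay below both wild-type libraries in 6 of the 7, against 29.7% of all genes. The transcription factor genes Ets1 and Tfap2b, the most abundant of these, had log2 fold changes of -0.17 and -0.43. With Wnt1-Cre;pMes-Bmp4 replicate 1 left out Tfap2b was at -0.58, and with Wnt1-Cre;pMes-Bmp4 replicate 2 left out it was at -0.29. Sox10, Foxd3 and Ngfr, markers of early crest and glia named after their values were seen, were at -1.16, -1.95 and -1.72, with limma adjusted p of 0.0721, 0.0898 and 0.142. In surface ectoderm 2 of 14 were higher, the keratins Krt18 and Krt14 (6 at an unadjusted p under 0.05), with a median of 0.42, and in arch mesoderm and muscle 1 of 9 was higher, the LIM-homeobox gene Isl1 (5 at an unadjusted p under 0.05), with a median of 0.16.

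FGF signalling, on which Gbx2 expression depends in the brain, was read through 14 genes. Of these 4 were lower and 0 higher (7 at an unadjusted p under 0.05), against 5.28% and 2.97% of all genes, with a median log2 fold change of -0.45. The feedback inhibitors Spry4, Spred2, Il17rd and Spry2 had log2 fold changes of -1.51, -1.21, -1.07 and -1.35. The other 10 did not pass and ran from Etv4 at -0.57 and Fgf8 at -0.55 to Fgf18 at 1.25. Among those between were Etv5 at 0.01, Dusp4 at -0.14, Spry1 at -0.20 and Dusp6 at -0.45. These were named after their values were seen. Of the 14 log2 fold changes 12 were negative and 2 positive, and the list includes the ligands Fgf8, Fgf17 and Fgf18. Both transgenic libraries lay below both wild-type libraries in 9 of the 14, against 29.7% of all genes tested. A part of FGF signalling in the fall of Gbx2 was not tested.

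**Figure D3:**
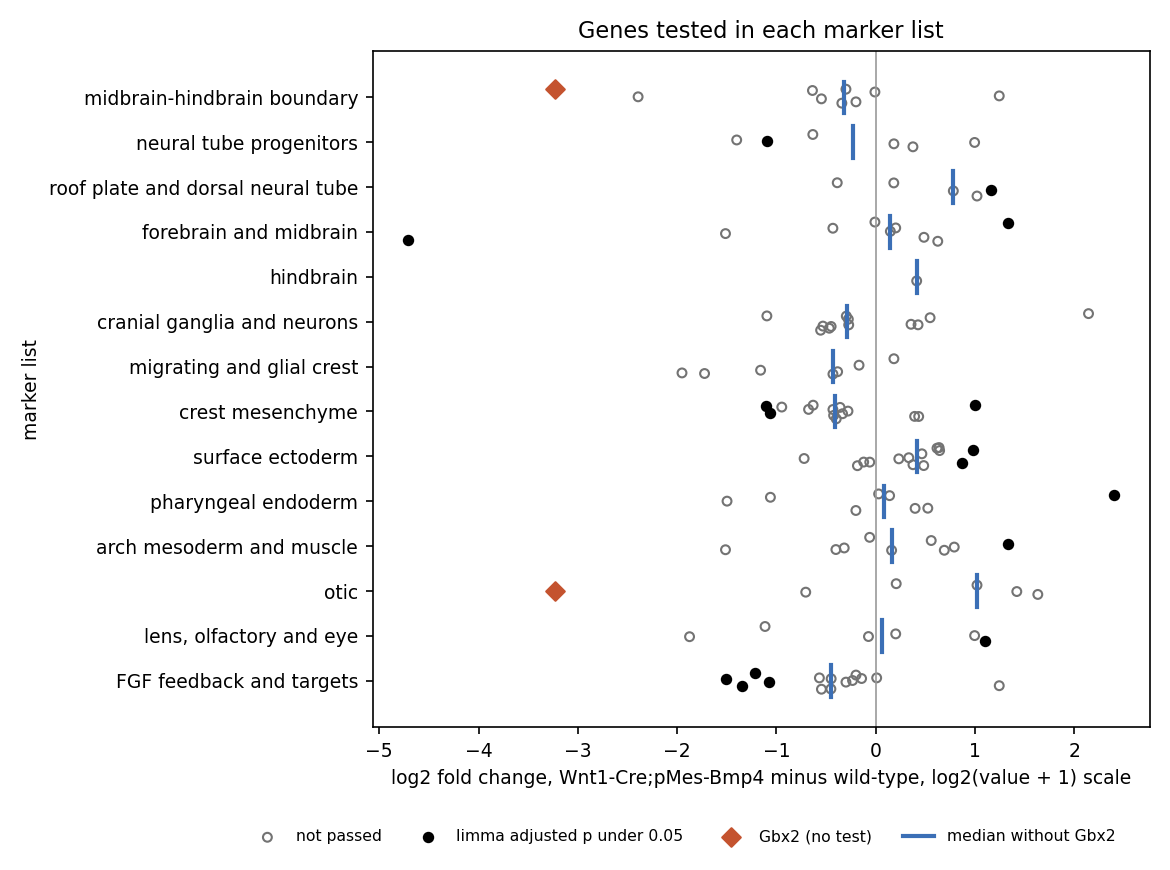
Log2 fold change of each gene tested in the 14 marker lists, Wnt1-Cre;pMes-Bmp4 minus wild-type. Filled points passed in limma, open points did not, the orange diamond is Gbx2, which belongs to the boundary and otic lists, and the blue line is the median of the list without Gbx2, which was -0.32 in the boundary list.

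Counts of calls changed with a correction for transcript length and with the library left out. Of 23 genes of the lists, the likeness search and the text that passed in limma, 0 passed without wild-type replicate 1, 0 without wild-type replicate 2, 23 when either transgenic library was left out, 11 after the length correction and 15 with that correction and the replicate number as a block. With 1 library left out the spread came from the pair of the other group alone. The 12 lost with the correction were Nes, Msx1, Emx2, Hesx1, Prrx2, Foxc1, Krt18, Krt14, Nkx2-6, Cryab, Il17rd and D130058E05Rik. With the correction Emx2 went from -4.71 to -4.87, Nkx2-6 from 2.41 to 2.22, Hesx1 from 1.33 to 1.14 and Nes from -1.09 to -0.74. The 2499 genes within 1.2 times the length of Gbx2, 2135 bases, had a median log2 fold change of 0.19, against 0.02 for all genes tested. After the length correction Gbx2 was at -3.44, and leaving out each library in turn gave -3.06 to -3.40. Over all 17 alternatives the log2 fold change of Gbx2 ran from -2.91 to -3.44, that of Otx2 from -0.25 to 0.24, that of Pax6 from 0.28 to 1.71 and that of Lmx1a from 0.43 to 1.62.

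**Figure D4:**
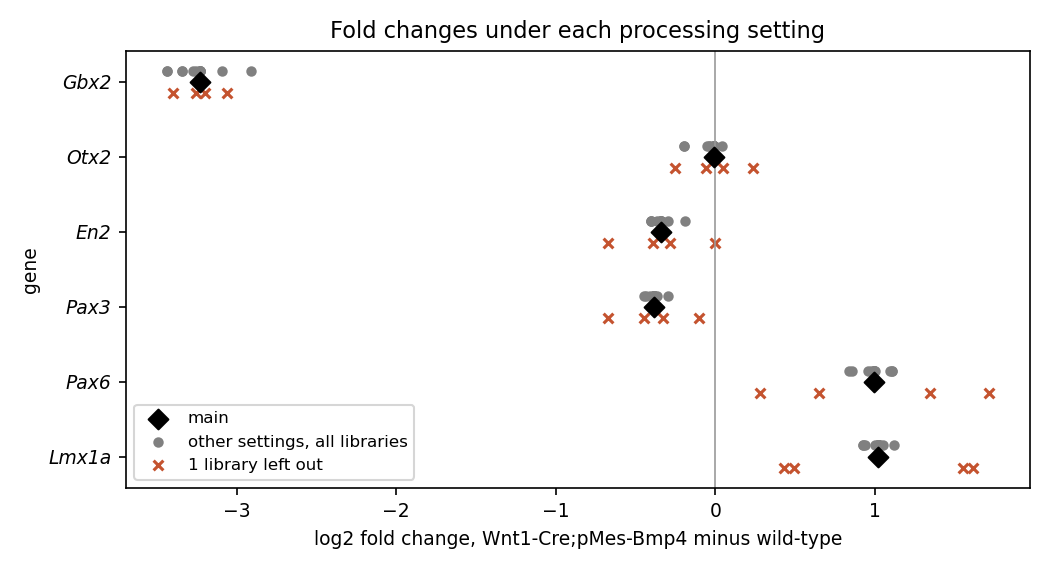
Log2 fold change of the 6 tested genes of the set, Wnt1-Cre;pMes-Bmp4 minus wild-type, as reported (black diamond), under settings that use all 4 libraries (grey points) and with 1 library left out (orange crosses). Gbx2 stays between -3.44 and -2.91, and Otx2 changes sign around 0.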

How the data were processed

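PolyA-selected RNA was sequenced in 4 libraries. FeatureCounts made the read counts, per the file headers. The authors' table gives a normalized signal, each count over its library's size factor. Fastp 0.21.0 and mm10 are named in the submitters' processing notes. Not given in the sources used here: aligner, annotation, strand setting and normalizing tool. When divided by the smallest value above 0 in its column, every value was a whole number of reads (100%, within 0.01).

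The main test was limma-trend (limma 3.58.1, R 4.3.3) on log2(value + 1) of 16746 genes whose mean reached 10, with two-sided p-values adjusted by Benjamini-Hochberg over all of them and called under 0.05. The fit had 2 residual and 5.26 prior degrees of freedom. Alternatives included edgeR 4.0.16 and DESeq2 1.42.0 on recovered reads, other pseudocounts, filters and scalings, a spline on transcript length, and each library left out. The main fit, edgeR, DESeq2 and the length correction were run on simulated counts with known changes, drawn at a fixed dispersion. The other settings were not run on simulated counts. Positions and lengths came from GENCODE M21 on GRCm38, promoters from RefSeq on GRCm38.p6.

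The members and marker lists were chosen with earlier results of these data known. Some genes of the marker lists are not reported here and are left out of their counts. Named genes were the 9 members, Bmp4, the 5 genes most like Gbx2 (leaving out predicted and Rik genes) and, from each list, at most 4 genes past the threshold by smallest p, or the 2 with the highest mean. Others were named after their values were seen. Figures were drawn with matplotlib 3.10.9.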

Additional observations from a re-analysis of the deposited data

How the results depend on the processing

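Beside Gbx2, the count of genes of the set called was 0 under each alternative that kept all 4 libraries, and 0 to 2 when 1 library was left out; the 2 were Pax6 and Lmx1a without Wnt1-Cre;pMes-Bmp4 replicate 2. Gbx2 kept its sign in all 17 alternatives, which refit the same values by which it was picked and so give no separate support. Otx2 changed sign to 0.038 with quantile scaling, and Ets1 to 0.048 with the length correction, alone or with the replicate block. With 1 library left out, the log2 fold change ran from -0.25 to 0.24 for Otx2, from -0.59 to 0.00078 for Tubb3 and from -0.67 to 0.13 for Neurod1.

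Over all genes 498 were higher and 884 lower. The counts were 0 and 0 in limma without the trend, 1284 and 1582 in DESeq2, 107 and 162 with the length correction, and 809 were higher with robust hyperparameters. Leaving out 1 library gave 0 to 2675 higher and 0 to 2719 lower, with 0 and 0 without wild-type replicate 1. With the replicate number as a block they were 165 and 543, and 238 and 350 with the block and the length correction. The labels do not say whether replicate numbers pair the libraries. The difference of replicate 1 and 2 correlated at -0.15 across 16746 genes between the groups. Across 12411 genes whose mean reached 50 it correlated at -0.27. A correlation across genes cannot decide whether the libraries were paired. The cause of these shifts was not tested. Transgenic values of Gbx2 rest on 12 and 11 reads, and En1, Wnt1 and Sox1 on at most 5 reads in any library, so depth limits these genes most.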
